A study of Drosophila melanogaster with 4 samples.

Results

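The invader families are 6 families of LTR retrotransposons of Drosophila melanogaster, numbered invader1 to invader6. All 6 were found by exact family name among the 126 transposon family rows of a table of 34705 rows. They are invader1 (FBgn0063430), invader2 (FBgn0063429), invader3 (FBgn0063428), invader4 (FBgn0063427), invader5 (FBgn0063426) and invader6 (FBgn0067380). Poly(A) RNA was sequenced from whole ovaries of adult flies in 2 Control libraries, from the cross labelled mat>Luc, and in 2 libraries of a germline knockdown of the nucleoporin Nup358, labelled Nup358GLKD. Each library came from 10 to 15 pairs of ovaries, and no further allele, strain or age is given. The series asks what this nuclear pore protein does in transposon silencing and in the making of piRNAs. Libraries of a group are described as biological repeats, with no word on separate crosses, so the spread behind each p-value is that between these samples and may be technical.

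LTR retrotransposons carry long terminal repeats (LTRs) at both ends and copy themselves through an RNA that is reverse transcribed and inserted elsewhere in the genome. The invader families belong to the Ty3/gypsy group, the largest LTR group of the fly. In the ovary such RNAs are held down by piRNAs, small RNAs bound by PIWI proteins that cut transposon transcripts and direct heterochromatin to their copies. A germline knockdown reaches nurse cells and the oocyte and spares the somatic follicle cells, which also express some LTR families. In whole ovaries, fewer cells of a type and less RNA per cell cannot be told apart.

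The libraries held 58876800 to 60792292 expected counts, of which transposon rows took 0.142% to 0.351%. Nup358 RNA stood at 43.9% of the Control mean in Nup358GLKD replicate 1 and at 23.5% in replicate 2, and the difference missed the threshold of the test used throughout (edgeR's quasi-likelihood test, log2 change −1.57, SE 0.34, Benjamini-Hochberg adjusted p = 0.0525, threshold 0.05). The log2 change was −2.09 without Nup358GLKD replicate 1 and −1.21 without replicate 2. With all 4 libraries the difference passed in DESeq2 (adjusted p = 0.000182), in limma-voom (0.0466), with total-count scaling (0.0419) and with robust=FALSE in edgeR (0.0486). In edgeR it also missed with RLE scaling (adjusted p = 0.0547), upper-quartile scaling (0.0648) and legacy=TRUE (0.0533). The same was true with no filter on low counts (0.0532) and with a stricter one (0.0751). The germline markers in the table, 7 of 8 names, summed to 3648 to 3673 CPM in Control (counts per 1000000 of the depth-scaled library) and to 5210 and 5586 CPM in the knockdown. The 12 follicle cell markers summed to 21164 and 21699 CPM in Control, 16835 CPM in Nup358GLKD replicate 1 and 21840 CPM in replicate 2. The 7 muscle sheath markers summed to 219.4 and 280.0 CPM in Control, 1155 CPM in Nup358GLKD replicate 1 and 246.4 CPM in replicate 2. The 6 fat body markers summed to 0.926 and 1.87 CPM in Control and to 19.7 and 23.0 CPM in the knockdown, and the 6 hemocyte markers to 1.12 and 1.45 CPM in Control, 9.63 CPM in replicate 1 and 1.45 CPM in replicate 2. No marker in these lists was at 0 in all 4 libraries. The part of these markers in the invader values was not tested.

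The invader families were low-abundance transposons whose RNA, where it was found at all, was higher in the knockdown libraries. Of the 6 families, 4 had reads, and all 4 were higher in either knockdown library than in any Control library. invader4 showed the highest ratio of group means, 6.04, followed by invader1 at 4.15, invader5 at 4.12 and invader2 at 1.80. Ratios of summed counts had exact 95% counting intervals of 4.15 to 8.82 for invader4, 2.54 to 6.73 for invader1 and 1.54 to 2.05 for invader2. By counting error alone, invader4 and invader1 overlapped and invader2 lay below both. These intervals leave out the spread between libraries. With it, the log2 changes were 2.59 (SE 0.62) for invader4, 2.03 (SE 0.78) for invader1 and 0.85 (SE 0.37) for invader2. Differences between the families were not tested. The other families, invader3 and invader6, were listed at 0 in every library. No family passed the test across all features, and in all 4 families with reads Nup358GLKD replicate 1 was the highest library.

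**Figure D1:**
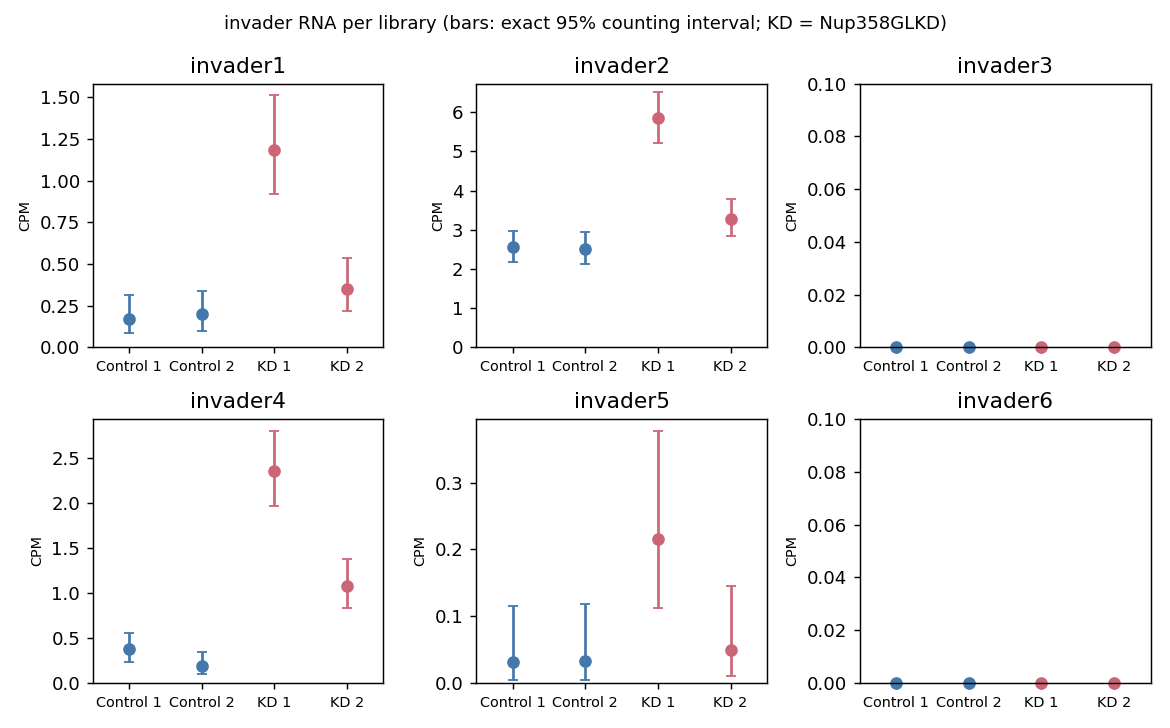
CPM of each invader family (vertical axis, from 0, scaled per panel) in the 2 Control libraries (blue) and the 2 Nup358GLKD libraries (KD, red), with exact 95% counting intervals as bars where the count is above 0. In invader1, invader2, invader4 and invader5 both knockdown points lie above both Control points and KD 1 is the highest, while invader3 and invader6 are at 0 in all 4 libraries.

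For invader4, Control replicates 1 and 2 held 23.46 and 11.79 expected counts, against 130.73 and 64.57 for Nup358GLKD replicates 1 and 2. Scaled for depth these were 0.375 and 0.192 CPM in Control and 2.35 and 1.07 CPM in the knockdown. The lowest knockdown library was 2.86-fold above the highest Control library, the widest such gap among the families. The group means were 0.283 ± 0.129 CPM for Control and 1.71 ± 0.903 CPM for the knockdown (SD, n = 2 each). The fitted log2 change was 2.59 (SE 0.62) and missed the threshold (adjusted p = 0.0586 in edgeR's quasi-likelihood test). It passed in DESeq2 (log2 change 2.63, adjusted p = 0.00476). The log2 change was 1.93 without Nup358GLKD replicate 1 and 3.02 without Nup358GLKD replicate 2. Its Control libraries also differed among themselves, by 1.95-fold.

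invader1 received 10.71 and 12.23 expected counts from the Control replicates, and 65.93 and 20.98 from Nup358GLKD replicates 1 and 2. That is 0.171 and 0.199 CPM in Control against 1.19 and 0.349 CPM in the knockdown. The knockdown libraries were far apart, replicate 1 at 6.41 and replicate 2 at 1.89 times the Control mean, and the exact 95% counting interval of replicate 2 (0.216 to 0.533 CPM) overlapped those of both Control libraries (0.0877 to 0.314 and 0.101 to 0.341 CPM). Counting intervals cover counting error only. The means were 0.185 ± 0.0197 and 0.767 ± 0.592 CPM (SD, n = 2 each), with a log2 change of 2.03 (SE 0.78) that did not pass edgeR's quasi-likelihood test (adjusted p = 0.127). The log2 change was 0.90 without Nup358GLKD replicate 1, and 2.64 without replicate 2.

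invader2 supplied most of the invader counts and showed the smallest difference. It had 160.02 and 154.97 expected counts in Control, near-equal at 2.55 and 2.52 CPM, and 325.01 and 197.98 in the knockdown replicates, or 5.84 and 3.29 CPM. Replicate 1 was 2.30 times and replicate 2 was 1.30 times the Control mean. The means were 2.54 ± 0.025 and 4.57 ± 1.8 CPM (SD, n = 2 each). The log2 change of 0.85 (SE 0.37) did not pass edgeR's quasi-likelihood test (adjusted p = 0.153). Without Nup358GLKD replicate 2 the log2 change was 1.17 and without replicate 1 it was 0.37.

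invader5 was at the edge of detection, with 2 expected counts in each Control library and 12 and 3 in Nup358GLKD replicates 1 and 2. It fell below the filter on low counts and was not tested. The summed counts of 15 against 4 gave a ratio of 4.02 with an exact 95% counting interval of 1.28 to 16.6. Replicate 2 alone, at 0.0498 CPM, was not distinguishable from the Control libraries at 0.0319 and 0.0325 CPM at this depth.

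invader3 and invader6 were listed at 0 expected counts in all 4 libraries, as were 10 of the 126 transposon rows. By the rule that a count of 0 allows up to 3 counts, the limit corresponds to 0.0479 to 0.0539 CPM per library. No reads were counted to these rows at this depth in either group, and no ratio can be given. Whether reads of these families were counted to other rows was not tested.

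The 3 tested families, invader1, invader2 and invader4, each had over 10 expected counts in every library, so their passing the filter did not rest on the knockdown. Of these 3, 0 rose and 0 fell in edgeR's quasi-likelihood test, beside 9.54% of all 10210 tested features that rose and 9.02% that fell. At an unadjusted p under 0.05 the count was 1 in edgeR (invader4), and at an adjusted p under 0.05 it was 1 in DESeq2, where 18.9% of features rose, and 0 in limma-voom. In invader1, invader2 and invader4 the groups did not overlap and the knockdown was higher. This held for 78.9% of the 90 other tested transposon rows and for 37.9% of all tested features. It also held for untested invader5, on 3 against 2 counts in the closest libraries. Without Nup358GLKD replicate 2, 4 of 4 tested families (invader5 included) rose, beside 35.5% of features, and without replicate 1, 1 of 3 did, beside 29.1%. In the fit without Nup358GLKD replicate 2, invader5 passed the filter on low counts only through its 12 counts in Nup358GLKD replicate 1. Its place among the 4 is therefore no support. The median log2 change was 2.03 over the 3 invader families, 1.10 over the 90 other tested transposon rows and 0.01 over all tested features. Among 93 tested transposon rows ordered by log2 change, invader4 ranked 14, invader1 ranked 21 and invader2 ranked 57.

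The difference between the knockdown libraries was shared with other transposons. Nup358GLKD replicate 1 exceeded replicate 2 by 3.40-fold for invader1, 2.19-fold for invader4 and 1.78-fold for invader2, and by 4.33-fold for invader5 on 12 against 3 counts. Of the 90 other tested transposon rows, 70 were also higher in replicate 1, with a median ratio of 1.44, whereas 49.2% of all tested features were. Replicate 1 was the knockdown library with more remaining Nup358 RNA, with the higher muscle sheath and hemocyte markers and with the lower follicle cell markers. The part of these in the invader values was not tested.

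**Figure D2:**
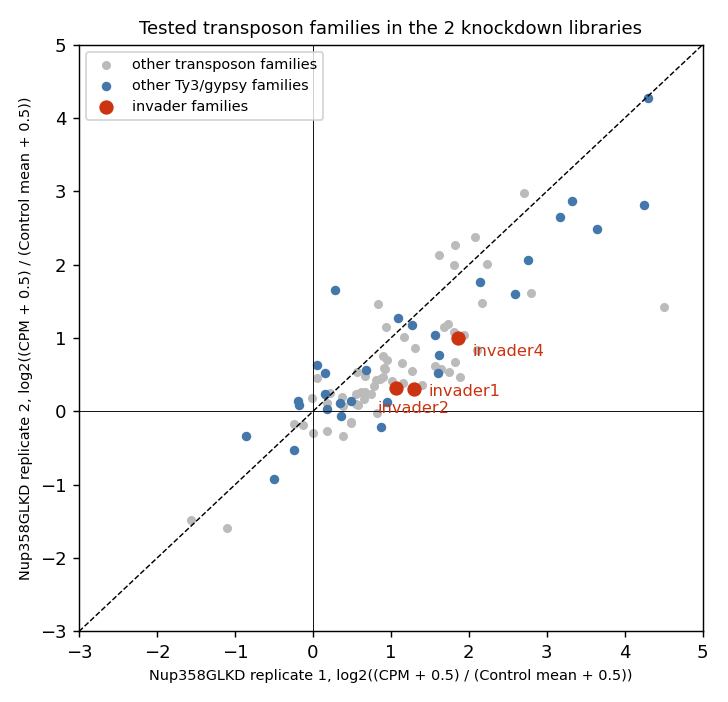
Each point is 1 of 93 tested transposon families, at its log2 ratio of CPM + 0.5 to the Control mean + 0.5 in Nup358GLKD replicate 1 (horizontal axis) and replicate 2 (vertical axis), with the dashed line marking equal ratios. invader1, invader2 and invader4 (red) lie above 0 on both axes and below the dashed line, as do many other Ty3/gypsy families (blue) and other families (grey).

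Summed over the 6 families, invader RNA came to 3.13 and 2.94 CPM for Control and to 9.59 and 4.76 CPM for Nup358GLKD replicates 1 and 2. Group means of 3.04 ± 0.134 and 7.18 ± 3.42 CPM (SD, n = 2 each) gave a ratio of 2.36, beside 2.48 for all transposon rows together (1398 and 3469 CPM). Without Nup358GLKD replicate 1 the invader ratio was 1.57. This sum does not depend on how reads were divided among the 6 families, and no test was made on it.

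As a share of all transposon counts the families parted. Shares are given in ppm, which is CPM taken within the transposon rows. The copia-superfamily rows are the largest part of that total, so these shares depend on them most. The 6 families together had 2194 and 2149 ppm in Control, 2819 ppm in Nup358GLKD replicate 1 and 1347 ppm in replicate 2, so the knockdown libraries lay on either side of Control. The ratio of mean shares was 0.959, and it was 0.620 without Nup358GLKD replicate 1 and 1.30 without replicate 2. invader2 made up 1790 and 1840 ppm in Control and 1717 and 930 in Nup358GLKD replicates 1 and 2, so its share was lower in both knockdown libraries. invader4 had 262 and 140 ppm in Control and 691 and 303 ppm in the knockdown, higher in both. The share of invader1 was 120 and 145 in Control and 348 and 98.6 ppm in the knockdown, above Control in replicate 1 and below it in replicate 2. invader5 behaved in the same way, with 22.4 and 23.7 in Control against 63.4 and 14.1 ppm. Within the invader counts, invader2 accordingly went from 81.6% and 85.6% in Control to 60.9% and 69.1% in the knockdown. With 2 libraries against 2, an exact two-sided permutation test cannot go below p = 0.3333, so these shares are given as values.

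**Figure D3:**
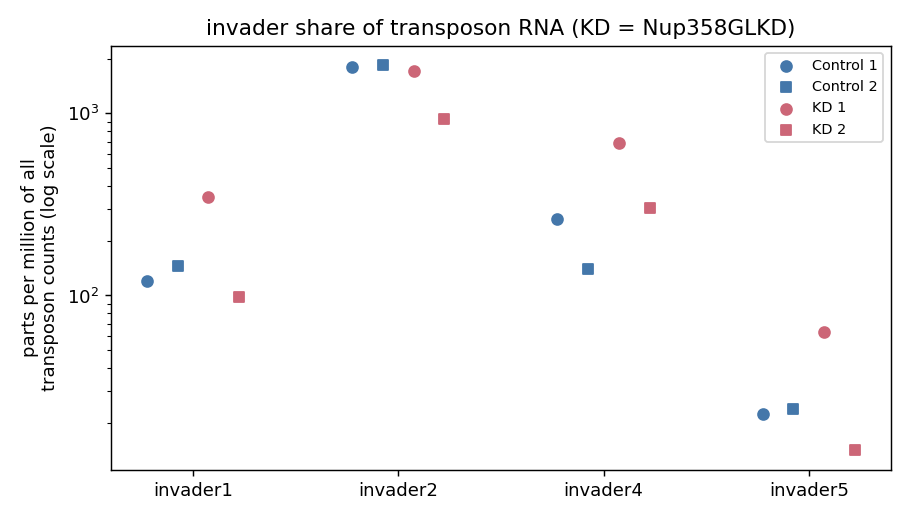
Share of each invader family with reads in all transposon counts, in ppm on a log axis, for the 2 Control (blue) and 2 Nup358GLKD (KD, red) libraries. The share of invader4 is higher in either knockdown library than in any Control library, that of invader2 is lower, and those of invader1 and invader5 lie on both sides.

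The other Ty3/gypsy families, 43 of which have a row, give the closest comparison by kind. Among the 29 tested there were 11 that rose, none that fell and 18 that stayed short of the threshold, with a median log2 change of 1.20, and the knockdown was higher without overlap in 21. The range of the list ran from gypsy10 (log2 change −2.50, SE 1.05, adjusted p = 0.144) and Tabor (−1.23, SE 0.60, adjusted p = 0.186), neither of which passed with all libraries (gypsy10 did without Nup358GLKD replicate 1, adjusted p = 0.015, and Tabor without replicate 2, adjusted p = 0.0126), to accord (4.92, SE 0.19, adjusted p = 0.0275) and blood (adjusted p = 0.0452), both of which rose. For blood, no count fell in Control and 502.33 and 181.56 expected counts in the knockdown. It therefore passed the filter on low counts only through the knockdown, and its place among the 11 is no support. The invader changes lie inside this range, also with accord taken as its upper end. The count of 11 fell to 0 without Control replicate 1 or Control replicate 2 and was 17 without Nup358GLKD replicate 1 or replicate 2. It was also 0 when RefSeq transcripts were left unsummed. These losses covered all features: edgeR called 0 of 10799 and 0 of 10800 without Control replicate 1 or 2 (1716 and 1543 at an unadjusted p under 0.05), and 1 of 20393 unsummed (7024 at an unadjusted p under 0.05).

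The transposon families whose profile over the 4 libraries was most like the median invader profile were not LTR elements. By Euclidean distance of centred log2(CPM + 0.5) values over the 4 libraries, the nearest were G4 (distance 0.264), Fw3 (0.269) and G2 (0.324), all LINE elements, which lack LTRs. G4 had 0.715 and 0.843 CPM in Control and 3.27 and 1.47 CPM in the knockdown. Fw3 had 0.107 and 0.0906 CPM in Control and 0.714 and 0.301 CPM in the knockdown. G2 had 0 counts in Control and 54.45 and 4.3 expected counts in the knockdown, and was not tested. Its knockdown libraries were 13.7-fold apart, against 1.78-fold to 3.40-fold in the tested invader families. The added 0.5 exceeds the Control CPM of invader1, invader4, Fw3 and G2, so it damps differences at these levels in the distances. Neither G4 nor Fw3 passed edgeR's quasi-likelihood test (adjusted p = 0.0937 and 0.0827). In DESeq2, G4 passed (adjusted p = 0.037) and Fw3 did not (0.0853). The log2 changes of G4 and Fw3 were 0.90 and 1.49 without Nup358GLKD replicate 1. Without replicate 2 they were 2.03 and 2.73.

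The copies of the families in the genome differ in number and annotated length. Lengths here are spans from the first to the last annotated base, so other elements annotated inside a copy count towards its length. The Ensembl annotation of the BDGP6 assembly, a later build than the dm3 used for the counts, lists 47 copies of invader1, 24 of invader2, 37 of invader3, 33 of invader4, 3 of invader5 and 8 of invader6. Most invader1 copies are short, with a median of 399 bases, and 5 of 47 reach 2000 bases. invader4 copies are shorter still, with a median of 347 bases and 6 of 33 reaching 2000 bases. invader2 has the highest median, 3868 bases, and 14 of 24 copies of at least 2000 bases. invader3 has 10 copies of at least 2000 bases yet no counts, so that the number of long annotated copies does not order the families as their counts do. Of the few invader5 copies, 2 are long (8640 and 3693 bases), and the longest invader6 copy has 4859 bases.

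**Figure D4:**
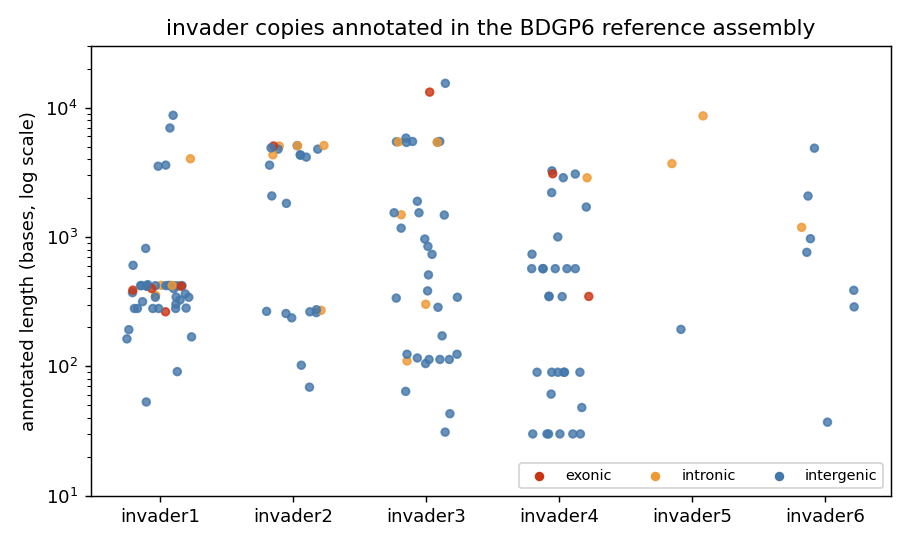
Annotated span in bases (log axis) of every annotated copy of each invader family in BDGP6, coloured by its position in an exon or an intron of an annotated gene or between genes. invader1 and invader4 are mostly below 2000 bases with repeated lengths near 420 and at 569, 90 and 30 bases, while 14 of 24 invader2 copies reach 2000 bases.

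Most copies lie outside genes: 39 of 47 for invader1, 18 of 24 for invader2, 31 of 37 for invader3, 30 of 33 for invader4, 1 of 3 for invader5 and 7 of 8 for invader6. A further feature is the interval between the genes Pld and jing on arm 2R, in which the major germline piRNA cluster 42AB lies. It holds 3 of the 8 invader6 copies, the 4859-base copy among them, and 53.6% of the annotated invader6 bases. It also holds 5 invader1 copies with 38.4% of the invader1 bases, including the longest, 8729 bases, 7 invader3 copies with 7.05% and 1 invader4 copy with 3.79%, but none of invader2 or invader5. Over all annotated transposons the interval holds 3.63% of the bases. These are shares of summed spans, in which bases of nested elements count more than once. RNA counted to the 42AB row was 12.9 and 12.3 CPM in Control and 20.9 and 16.9 CPM in Nup358GLKD, a log2 change of 0.58 (SE 0.18) that missed the threshold of edgeR's quasi-likelihood test (adjusted p = 0.0829). The 42AB row passed in DESeq2 (adjusted p = 0.0403). Its log2 change was 0.42 without Nup358GLKD replicate 1 and 0.70 without replicate 2.

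By number of annotated copies, though not by bases, invader4 is concentrated at the annotated end of a chromosome arm. On arm 3R, 19 of the 33 copies (57.6%) lie on the plus strand within 5952 bases, at 3R:32072961-32078912 in BDGP6, and the last of them is the last annotated feature of the arm. They are fragments of recurring length, 6 of 569 bases, 6 of 90 bases, each annotated inside a 569-base one, and 6 of 30 bases. The longest has 569 bases, so the 6 invader4 copies of at least 2000 bases lie elsewhere. As background, subtelomeric repeats lie beside the telomeric retrotransposons of the fly and are known sources of piRNAs in its germline. The nearest protein-coding genes are mod and Map205 on the inner side. The table has 1 row for the whole family, so the values of invader4 cannot be divided between these fragments and its longer copies.

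invader1 has a run of its own inside a heat shock locus. On 3R, 15 of its 47 copies (31.9%), all on the minus strand and 192 to 422 bases long, lie between positions 12469837 and 12500190 in BDGP6, flanked by Hsp70Ba on one side and Hsp70Bbb on the other. Both encode Hsp70, the major inducible chaperone. Of these copies 2 are in the exons and on the strand of the noncoding gene lncRNA:alphagamma-element:CR32865 (3R:12475336-12478267), whose family of repeats is transcribed on heat shock. To this RNA fell 3.23 and 27.79 expected counts of Control replicates 1 and 2, against 72.92 and 72.66 of the knockdown replicates, or 0.0516 and 0.452 CPM against 1.31 and 1.21 CPM. It did not pass edgeR's quasi-likelihood test (log2 change 2.32, SE 0.82, adjusted p = 0.109), and its log2 change was 4.63 without Control replicate 2 and 1.44 without Control replicate 1.

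The Hsp70 genes, which are near-identical and were therefore summed over 6 genes, reached 53.1 and 234.5 CPM for Control replicates 1 and 2, and 826.3 and 411.7 CPM for Nup358GLKD replicates 1 and 2. Most of this sum was Hsp70Ab, which does not flank the invader1 run (44.7 and 185.6 CPM, then 624.3 and 326.8 CPM). Flanking Hsp70Ba had 0.374 and 4.10 CPM in Control and 23.2 and 12.2 CPM in the knockdown. Flanking Hsp70Bbb had 0 and 3.32 CPM in Control and 5.01 and 0.302 CPM in the knockdown. Control replicate 2 exceeded replicate 1 by 4.42-fold in Hsp70 and by 8.76-fold in alphagamma-element RNA, but by 1.16-fold in invader1. In the knockdown, invader1 and Hsp70 were both higher in replicate 1, while alphagamma-element RNA was 1.31 and 1.21 CPM. The part of this locus in the invader1 value was not tested.

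**Figure D5:**
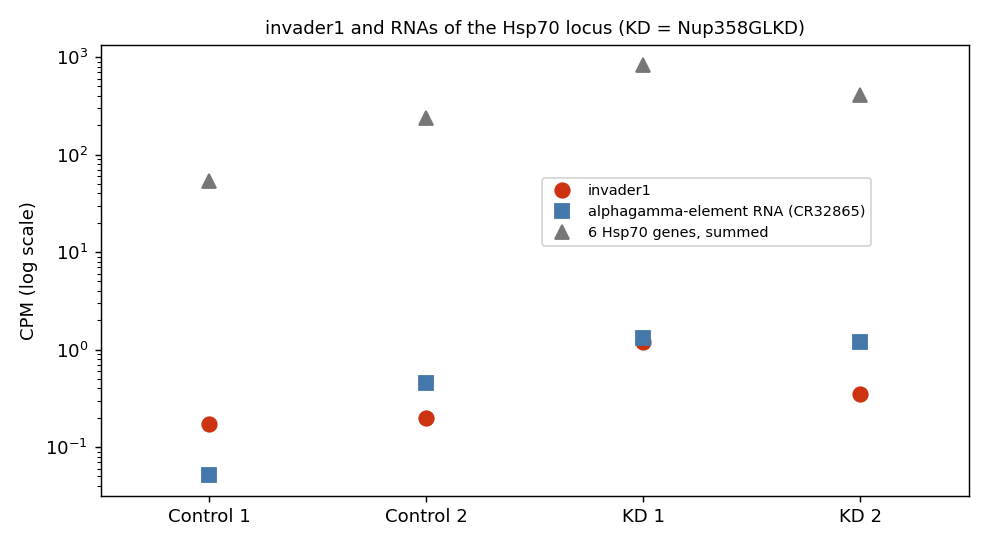
CPM on a log axis of invader1 (circles), alphagamma-element RNA (squares) and 6 Hsp70 genes summed (triangles, mostly Hsp70Ab) in the 2 Control and 2 Nup358GLKD (KD) libraries. Between the Control libraries the Hsp70 and alphagamma-element values differ by 4.42-fold and 8.76-fold and invader1 by 1.16-fold.

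Other copies lie inside annotated genes. An intron of Marf1, an RNA-binding protein of oocytes, holds a 5045-base invader2 copy, a 354-base invader1 copy and the 8640-base invader5 copy, which overlaps that of invader2 in the annotation. Marf1 had 811.1 and 840.9 CPM in Control and 192.8 and 552.7 CPM in Nup358GLKD, lower in both. The log2 change of −1.15 (SE 0.54) missed the threshold of edgeR's quasi-likelihood test (adjusted p = 0.176), but passed without Nup358GLKD replicate 1 (−0.58, adjusted p = 0.000487) or replicate 2 (−2.13, 6.8e-05). Exonic copies lie in the annotation of Nubpl, whose human counterpart helps to assemble respiratory complex I, for invader1, and of the synaptic gene unc-13 for invader4. Nubpl rose from 69.8 and 67.5 CPM in Control to 150.5 and 122.2 CPM in the knockdown (log2 change 0.99, SE 0.15, adjusted p = 0.0342, not passing without Control replicate 1 (adjusted p = 0.297) or 2 (0.329)). unc-13 had 158.2 and 149.9 CPM in Control and 205.3 and 185.5 CPM in Nup358GLKD. Its log2 change was 0.34 (adjusted p = 0.0931 in edgeR's quasi-likelihood test), and 0.27 or 0.39 without Nup358GLKD replicate 1 or 2. invader3, listed at 0, has a 13188-base copy annotated over an exon of Nlg1, a neuroligin gene. Nlg1 had 2.11 and 1.43 CPM in Control and 5.50 and 1.95 CPM in the knockdown. Its log2 change was 1.07 (adjusted p = 0.236 in edgeR's quasi-likelihood test), and 0.13 or 1.60 without Nup358GLKD replicate 1 or 2. The other exonic copies lie in Bin1 (invader4), Crg-1 (invader1) and lncRNA:CR46475 (invader2). Bin1 had 33.6 and 34.6 CPM in Control and 30.1 and 35.0 CPM in Nup358GLKD, overlapping (adjusted p = 0.725 in edgeR's quasi-likelihood test). AGO3, a PIWI protein of the germline with an intronic invader4 copy, also overlapped, at 162.0 and 170.5 CPM in Control and 156.0 and 176.6 CPM in Nup358GLKD (adjusted p = 0.999). Crg-1 had 0.0369 and 0.0590 CPM in Control and 0.239 and 0.159 CPM in Nup358GLKD, and was not tested. For lncRNA:CR46475 there was no value. How reads from such copies were divided between the gene rows and the family rows was not tested.

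RSEM splits a read that matches several sequences, which can leave fractional values. All values of invader5 were whole and those of invader2 were at most 0.03 from a whole number. Those of invader1 were up to 0.29 and those of invader4 up to 0.46 from a whole number. A fractional value shows that some reads were divided with another sequence but not what share of them, and a whole value does not show that none were.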

How the data were processed

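Poly(A) RNA of adult ovaries was sequenced in 2 Control and 2 Nup358GLKD libraries, grouped by their titles. The deposited values are expected counts per transcript, transposon family or piRNA cluster, unscaled for depth and length, per the file headers. Bowtie2, RSEM and build dm3 were used, per the submitters' processing notes. The sources used here do not give versions, family sequences or the strand setting, so sense and antisense RNA cannot be told apart and levels of different families are not compared per length.

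RefSeq rows were summed per gene with a RefSeq table of assembly Release 6 (33997 of 34437 rows matched) and rounded. edgeR 4.0.16 in R 4.3.3 (TMM, filterByExpr with a minimum count of 10, glmQLFit with robust=TRUE and legacy=FALSE) tested group over all 10210 features kept, with Benjamini-Hochberg adjusted p under 0.05 as threshold. CPM use unrounded counts and TMM-scaled library sizes. Each SE was back-calculated as the absolute log2 change divided by the square root of the F statistic of the same test. Intervals are exact at 95% (Poisson per library, Clopper-Pearson for ratios). Alternatives used DESeq2 1.42.0, limma 3.58.1, other scalings and filters, unsummed rows, a replicate block, and fits without 1 library at a time. The code was tested on simulated data. Families and lists were chosen with earlier results of these data known. The named families are all members, the 3 nearest in profile and the 2 largest and 2 smallest changes of the Ty3/gypsy list. The Hsp70 locus, Pld to jing interval and host genes were taken from the annotation afterwards.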

Additional observations from a re-analysis of the deposited data

How the results depend on the processing

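The count of invader families that rose was 0 in edgeR and 1 (invader4) in DESeq2 and with the replicate block (log2 change 2.58, adjusted p = 0.0313, where 12.1% of all features rose). It ran from 0 to 4 when each library was left out in turn. It was 0 without Control replicate 1 or 2 (1 and 0 families at an unadjusted p under 0.05), where edgeR called none of 10799 and 10800 features, 1 (invader4) without Nup358GLKD replicate 1, where 29.1% of features rose, and 4 without Nup358GLKD replicate 2, where 35.5% rose and invader5 was among those tested. No family fell in any of these. Without Nup358GLKD replicate 2, invader5 passed the filter only through its 12 counts in Nup358GLKD replicate 1, so its call there is no support. At a mean of at least 5 CPM no invader family was left to test. In fits that leave a lone library in a group, its spread is taken from the remaining group.

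invader1, invader2 and invader4 kept a positive log2 change in all 14 alternatives fitted, from 0.90 to 2.64, 0.37 to 1.17 and 1.93 to 3.09. The summed invader ratio ran from 2.20 to 2.59 over scalings and from 1.57 to 3.16 when a library was left out. The count of 11 other Ty3/gypsy families that rose was 0 with unsummed RefSeq rows (12 at an unadjusted p under 0.05, and 1 of all 20393 features called) and ran from 0 to 17 when each library was left out. Upper-quartile factors moved the median log2 change of all tested features to 0.14, with 61.7% of calls higher beside 51.4%, and left the invader count at 0. Same-numbered replicates deviated together at a correlation of 0.112 across features. The labels do not say that numbers pair the samples, so the block is an alternative only. Counting error limits invader5, invader3 and invader6.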
